A study of Gallus gallus with 10 samples.

Results

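MGST2 and XDH are a pair of kidney enzyme genes that handle glutathione or make uric acid. Their levels were followed over all 10 kidneys of the series. They are 2 of the 17108 genes counted and 2 of the 12187 that passed the filter on low counts. Both were picked by name and Ensembl identifier because the study listed them as differentially expressed genes (DEGs) between Ca groups of these same birds, MGST2 (ENSGALG00000009803) between 0.8 and 1.0% Ca and XDH (ENSGALG00000008701) between 0.8 and 1.0% Ca and between 1.0 and 1.2% Ca. Their differences in those comparisons are therefore given as descriptions with no test. Ross 308 broiler chickens received 0.8% Ca (3 birds, replicates 1, 3 and 4), 1.0% Ca (4 birds, replicates 1 to 4) or 1.2% Ca (3 birds, replicates 1 to 3) until 21 days after hatching. All diets held 0.35% non-phytate phosphorus and added phytase, and kidneys were taken from birds whose weight was near their treatment mean. RNA was sequenced as 1 library per bird, and each library held 6176553 to 7857813 fragments counted on genes. The file headers place the libraries in 2 lanes, with all 0.8% Ca birds in lane 2, all 1.2% Ca birds in lane 1, and the 1.0% Ca birds divided evenly, so that lane and Ca can be told apart only through the 1.0% Ca birds.

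Glutathione is the main small thiol of cells, and glutathione transferases join it to reactive compounds or use it to reduce peroxides. MGST2 is a membrane-bound transferase of the MAPEG family, which in mammals can also join glutathione to leukotriene A4 to give leukotriene C4. XDH, xanthine dehydrogenase, is a molybdenum enzyme that oxidises hypoxanthine to xanthine and xanthine to uric acid. In mammals it also has an oxidase form, which passes electrons to oxygen to give superoxide and hydrogen peroxide. Birds excrete most of their waste nitrogen as uric acid, and the kidney secretes it.

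On Galgal4, MGST2 lies on the forward strand of chromosome 4 from 28831982 to 28841789, with 5 exons that together hold 563 bases. XDH lies on the forward strand of chromosome 3 from 4394627 to 4438268, with 37 exons that together hold 7159 bases. The last exon of XDH, exon 37, holds 2741 of them, 38.3% of the counted length. No other gene of the annotation overlapped either of them (0 genes in both cases). The RefSeq table of assembly GRCg7b gives the same chromosomes for both symbols, and places AOX1, the related aldehyde oxidase, on chromosome 7.

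MGST2 was a low-level transcript whose 4 lowest birds were the 4 birds at 1.0% Ca. Levels are given as CPM, counts scaled to a common library size with the TMM factors of edgeR. At 0.8% Ca, MGST2 was at 7.80 CPM in replicate 1, 15.1 CPM in replicate 3 and 7.55 CPM in replicate 4. At 1.0% Ca it was at 4.40, 2.65, 3.47 and 4.49 CPM in replicates 1 to 4. At 1.2% Ca it was at 5.25, 7.51 and 6.26 CPM in replicates 1 to 3. The 1.0% Ca birds overlapped neither of the other groups, while the 0.8 and 1.2% Ca birds met at 7.55 and 7.51 CPM. These levels rest on 19 to 33 fragments per bird at 1.0% Ca and on 39 to 101 in the other birds. The 95% Poisson interval of the highest bird at 1.0% Ca was 3.09 to 6.31 CPM, and that of the lowest bird at 1.2% Ca was 3.74 to 7.18 CPM, so that the gap between these groups was within the counting error of the birds on either side of it. Poisson intervals cover counting error only.

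In the 0.8% Ca group MGST2 averaged 10.1 ± 4.26 CPM (SD, n = 3). In the 1.0% Ca group it averaged 3.75 ± 0.869 CPM (SD, n = 4), and in the 1.2% Ca group 6.34 ± 1.13 CPM (SD, n = 3). Replicate 3 at 0.8% Ca alone gave 49.5% of the sum of its group and stood at 1.96 times the mean of the other birds there. In whole kidney tissue, fewer cells of a type and less RNA per cell cannot be told apart, and this holds for every level given here.

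XDH was the more uneven gene, with a high bird in each of the outer Ca groups. At 0.8% Ca, XDH was at 70.2 CPM in replicate 1, 11.6 CPM in replicate 3 and 18.0 CPM in replicate 4. At 1.0% Ca it was at 11.2, 10.9, 20.5 and 14.7 CPM in replicates 1 to 4. At 1.2% Ca it was at 22.0, 25.4 and 55.6 CPM in replicates 1 to 3. Both replicate 1 of the 0.8% Ca group and replicate 3 of the 1.2% Ca group stood above all other birds, and their 95% Poisson intervals of 63.7 to 77.1 CPM and 50.5 to 61.0 CPM overlapped neither each other nor that of any other bird. The birds at 0.8% Ca overlapped both other groups. All birds at 1.2% Ca lay above all birds at 1.0% Ca, but the nearest of them, at 22.0 and 20.5 CPM, had intervals of 18.7 to 25.6 and 17.2 to 24.3 CPM that overlapped.

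In the 0.8% Ca group XDH averaged 33.3 ± 32.1 CPM (SD, n = 3). In the 1.0% Ca group it averaged 14.3 ± 4.48 CPM (SD, n = 4), and in the 1.2% Ca group 34.3 ± 18.5 CPM (SD, n = 3). A single bird gave 70.3% of the XDH sum at 0.8% Ca, at 4.73 times the mean of the other birds. Replicate 3 gave 54.0% of it at 1.2% Ca, at 2.35 times the mean of the others.

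**Figure D1:**
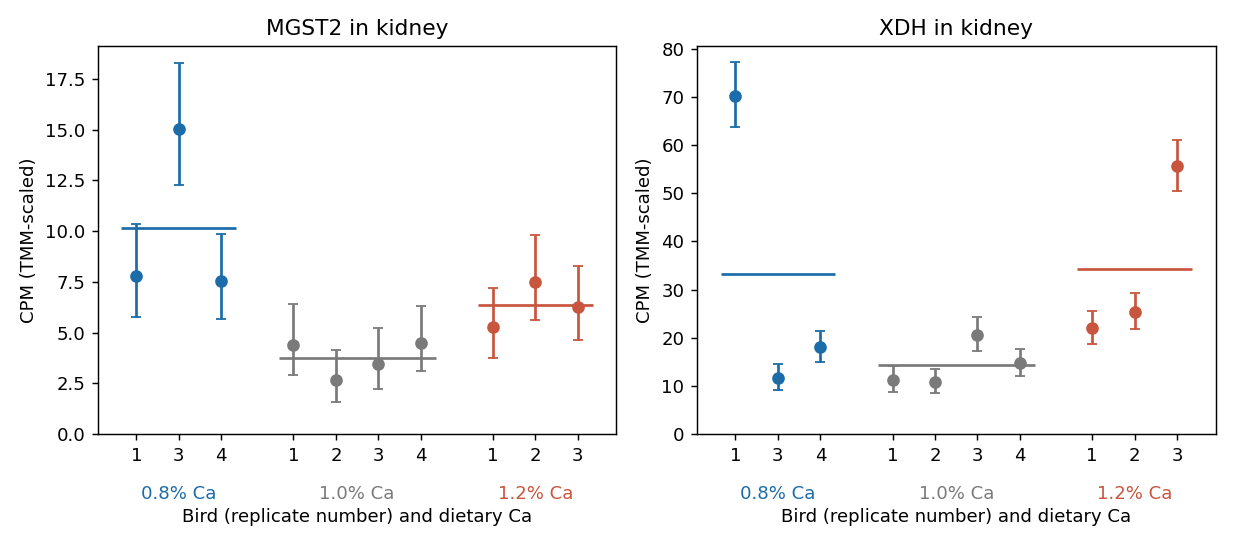
CPM of MGST2 and XDH in each bird by Ca group, with 95% Poisson intervals as error bars and the group means as lines. MGST2 was lowest in the 4 birds at 1.0% Ca, from 2.65 to 4.49 CPM, and XDH stood highest in 1 bird at 0.8% Ca (70.2 CPM) and 1 bird at 1.2% Ca (55.6 CPM).

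Per length the order of the genes turned round, since the XDH model is the longer one. Over the 10 birds, MGST2 was at 11.4 CPM per kilobase of exon and XDH at 3.63. Among the genes that passed the filter, the level per kilobase of MGST2 stood at the 41.4th percentile and that of XDH at the 17.9th. MGST1, another microsomal glutathione transferase, was at 92.8 CPM per kilobase and GSTA3, a soluble transferase of the alpha class, at 37.9.

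The spread between birds of 1 Ca group was wider for XDH than for MGST2. The SD of log2 CPM within groups was 0.39 for MGST2, at the 58.1th percentile of the 1044 genes within 0.5 of its log2 level, whose median was 0.36. The corresponding SD of XDH was 0.86, at the 98.7th percentile of 2015 genes around its level, whose median was 0.21. A spread high for its level was not particular to XDH among the redox genes, as CHAC1 stood at the 99.5th percentile of genes of its own level, Nox2 at the 97.8th, GSTA3 at the 96.8th and MGST1 at the 93.0th. MGST2, XDH and these redox genes were all listed as DEGs of these birds, a choice that can favour genes with a high bird. The percentiles are therefore descriptions. For XDH the coefficient of variation was 96.5% at 0.8% Ca, 31.2% at 1.0% Ca and 53.9% at 1.2% Ca, where counting error alone would give 6.85, 10.1 and 6.21%. For MGST2 it was 42.1, 23.2 and 17.8%, where counting error alone would give 12.2, 19.8 and 14.6%. MGST2 rests on 19 to 53 fragments per bird at 1.0 and 1.2% Ca, where counting error makes up more of its spread. Of the whole variation of log2 CPM over the 10 birds, 74.5% lay between Ca groups for MGST2 and 33.0% for XDH, shares that the choice of the genes already used.

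**Figure D2:**
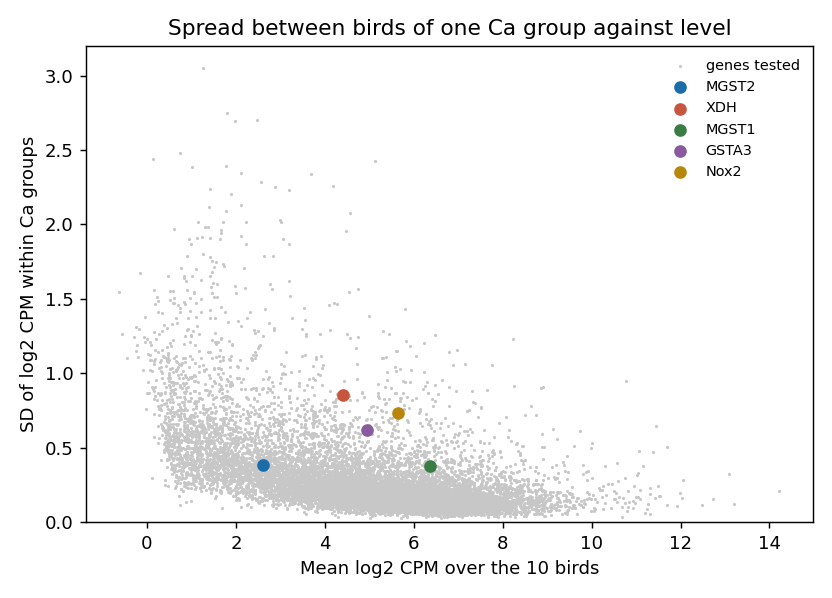
SD of log2 CPM within Ca groups against mean log2 CPM over the 10 birds, with a grey point for each of the 12187 genes tested and 5 named redox genes in colour. XDH, at an SD of 0.86, lay above most genes of its level, while MGST2, at 0.39, lay among them. All 5 named genes were listed as DEGs of these birds, a choice that can favour a wide spread.

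Differences between groups were fitted in edgeR with the quasi-likelihood test on all 10 birds. Between 0.8 and 1.0% Ca, the choosing comparison of both genes, the log2 difference was -1.43 (SE 0.30) for MGST2 and -1.21 (SE 0.57) for XDH, with negative values lower at 1.0% Ca. With a threshold of 0.05 on the adjusted p, 0 of 12187 genes (0%) were called there by the quasi-likelihood test, while 1034 genes had an unadjusted p below 0.05. The likelihood ratio test of edgeR called 22 genes (0.181%) and DESeq2 called 30 (0.246%), and MGST2 was in both counts, so that 1 of the 2 genes was called by each. Of all genes tested, 815 (6.69%) were lower in every 1.0% Ca bird than in every 0.8% Ca bird, and 1 of the 2 genes, MGST2, was so. Nothing is read from these counts, since this comparison chose the genes.

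Between 1.0 and 1.2% Ca, the log2 difference was 0.75 (SE 0.31) for MGST2 and 1.26 (SE 0.57) for XDH, with positive values higher at 1.2% Ca. By the quasi-likelihood test 0 genes (0%) were called, while 448 genes had an unadjusted p below 0.05. The likelihood ratio test and DESeq2 called 3 each, with neither MGST2 nor XDH among them. In every 1.2% Ca bird above every 1.0% Ca bird were 317 genes (2.6%), with both MGST2 and XDH among them. XDH had been chosen on this comparison too, and both shared the 1.0% Ca birds with the comparison that chose them.

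Between 0.8 and 1.2% Ca, on which neither gene was chosen, no difference passed the test. The 0.8% Ca birds had entered the comparison that chose both genes, and the 1.2% Ca birds a comparison that chose XDH. The p values given here and on the slope are therefore not free of that choice. MGST2 differed by -0.68 on the log2 scale (SE 0.32, quasi-likelihood adjusted p = 0.572) and XDH by 0.05 (SE 0.59, adjusted p = 0.989). Over the alternatives run, the adjusted p was 0.524 to 0.909 for MGST2 and 0.826 to 1 for XDH. By the quasi-likelihood test 0 of 12187 genes (0%) were called there, while 1075 genes had an unadjusted p below 0.05. The likelihood ratio test called 19 and DESeq2 42. The groups did not overlap, in either direction, for 1826 genes (15%), and 1 of the 2 genes, MGST2, was among them by the narrow gap given above. That gap closed on library sizes set by total counts, where the nearest birds were at 7.63 CPM (0.8% Ca) and 7.65 CPM (1.2% Ca).

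On a straight line over Ca, the log2 difference from 0.8 to 1.2% Ca was -0.70 (SE 0.45, quasi-likelihood adjusted p = 0.658) for MGST2 and 0.06 (SE 0.64, adjusted p = 0.989) for XDH. Over the alternatives run, the adjusted p was 0.543 to 0.954 for MGST2 and 0.744 to 0.998 for XDH. With a threshold of 0.1 on the adjusted p, 0 genes (0%) were called on the slope by the quasi-likelihood test, while 1099 genes had an unadjusted p below 0.05. The likelihood ratio test called 35 and DESeq2 56, and neither MGST2 nor XDH was called by any of them. The pattern of MGST2, with all 4 birds at 1.0% Ca below all 6 others, was shared by 63 of 12187 genes (0.517%) and was not seen for XDH. It combines the groups that chose MGST2 and is a description. Among the other named genes, CCL20, a chemokine, and CRYD2, the delta crystallin gene of birds that encodes argininosuccinate lyase, had it too.

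Single birds decided the size of several of these differences. Without replicate 1 at 0.8% Ca, the XDH difference between 0.8 and 1.0% Ca was -0.05 (SE 0.41) in place of -1.21. Without replicate 3 at 1.2% Ca, the XDH difference between 1.0 and 1.2% Ca was 0.72 in place of 1.26. Without replicate 1 at 0.8% Ca, the XDH slope was 1.34, and without replicate 3 at 1.2% Ca it was -0.63, so that its direction turned on the bird left out. For MGST2, leaving out replicate 3 at 0.8% Ca gave a difference between 0.8 and 1.0% Ca of -1.03 in place of -1.43, the smallest of the 10 fits with a bird left out, and the direction held in all 10. The MGST2 difference between 0.8 and 1.2% Ca was -0.27 without that bird. The XDH difference between 0.8 and 1.2% Ca, 0.05 over all birds, was 1.21 (SE 0.44, quasi-likelihood adjusted p = 0.909) once the high bird of the 0.8% Ca group was left out. It was -0.49 once the high bird of the 1.2% Ca group was left out.

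**Figure D3:**
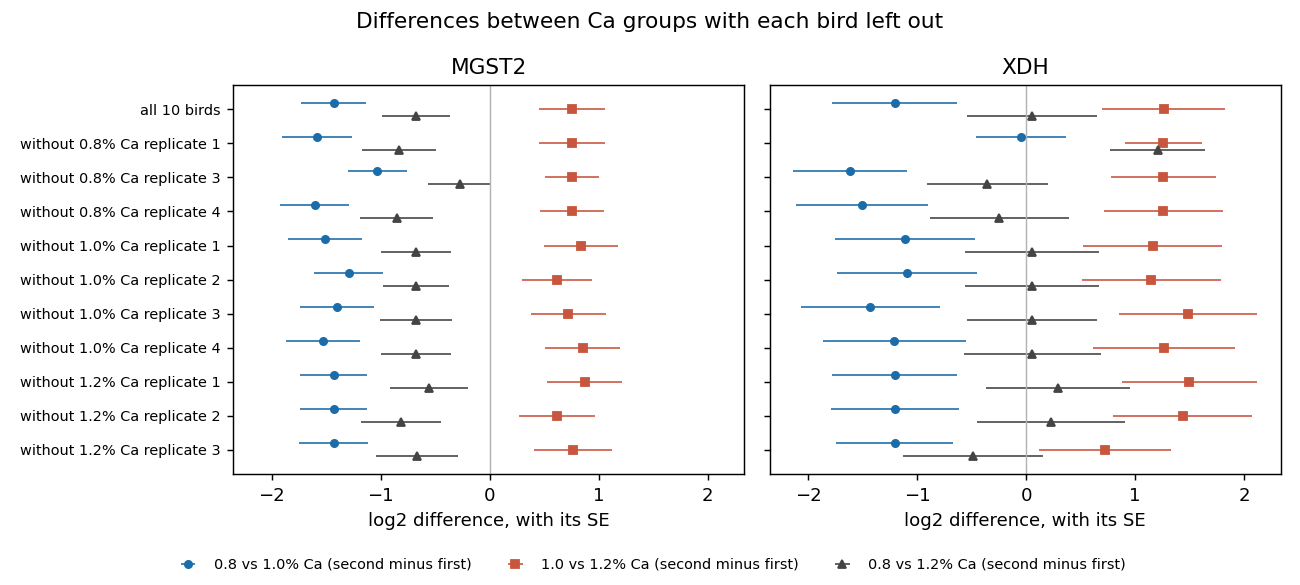
Log2 differences between pairs of Ca groups, with their SE, for all 10 birds and with each bird left out in turn, for MGST2 and XDH. The XDH difference between 0.8 and 1.0% Ca went from -1.21 to -0.05 without replicate 1 at 0.8% Ca, while that of MGST2 stayed between -1.61 and -1.03.

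Inside the 1.0% Ca group, the only group in both lanes, the lanes did not overlap for XDH, and this was not particular to XDH. MGST1, at 57.6 and 59.0 CPM in lane 1 and 69.5 and 83.7 CPM in lane 2, was split the same way. So was GSTA3, at 17.3 and 18.9 CPM in lane 1 and 20.98 and 27.9 CPM in lane 2. For Nox2 the lanes overlapped. With 2 birds in each lane such a split is easily met, and how many of all genes tested show it was not counted. XDH was at 10.9 and 11.2 CPM in the lane 1 birds and at 14.7 and 20.5 CPM in the lane 2 birds. MGST2 was at 2.65 and 4.40 CPM in lane 1 and at 3.47 and 4.49 CPM in lane 2, where the lanes overlapped. With lane as a covariate the differences between 0.8 and 1.0% Ca were -1.34 (SE 0.39) for MGST2 and -0.91 (SE 0.70) for XDH, and the XDH difference between 1.0 and 1.2% Ca was 1.63 (SE 0.74). The XDH difference between 0.8 and 1.2% Ca, whose groups were sequenced in different lanes, went from 0.05 to 0.72 (SE 0.99), and the XDH slope from 0.06 to 0.65 (SE 1.35).

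Lists of glutathione, reactive oxygen and purine genes were searched for named partners, but the count table gives Ensembl identifiers with no symbols, and 143 of the 17108 could be named from the tables of the study. All but GAPDH were named there as DEGs of these birds, so that their differences between groups carry no test here. Identified were 2 of 6 MAPEG enzymes (MGST1 and MGST2) and 1 of 12 soluble glutathione transferases (GSTA3). So was 1 of 19 genes of glutathione synthesis, recycling and breakdown (CHAC1). Also identified were 2 of 18 enzymes listed as making superoxide or peroxide (Nox2 and XDH) and 1 of 15 genes of purine breakdown and salvage (XDH). Of the 11 urate transporters, the 13 genes of purine synthesis, the 13 of peroxide and superoxide removal and the 14 regulators and targets of NRF2, a transcription factor of the response to oxidative stress, 0 could be identified, and they are not analysed here.

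MGST1, a microsomal transferase that also reduces lipid peroxides, was at 110, 71.7 and 85.0 CPM in replicates 1, 3 and 4 at 0.8% Ca. It was at 59.0, 57.6, 83.7 and 69.5 CPM in replicates 1 to 4 at 1.0% Ca. It was at 67.8, 104 and 149 CPM in replicates 1 to 3 at 1.2% Ca, and its groups overlapped throughout. The same 2 birds led as for XDH, in the reverse order. Between 1.0 and 1.2% Ca its log2 difference was 0.66 (SE 0.25).

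GSTA3, which joins glutathione to reactive electrophiles, was at 52.3, 32.3 and 33.7 CPM at 0.8% Ca, in replicates 1, 3 and 4. It was at 18.9, 17.3, 27.9 and 20.98 CPM in replicates 1 to 4 at 1.0% Ca. It was at 17.9, 50.6 and 72.0 CPM in replicates 1 to 3 at 1.2% Ca. All birds at 0.8% Ca lay above all birds at 1.0% Ca, and replicate 1 at 1.2% Ca fell among the latter. RefSeq lists 4 alpha class genes on chromosome 3 of GRCg7b, and whether fragments were shared between such copies was not tested.

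Nox2, the catalytic subunit of the oxidase by which phagocytes make superoxide, was at 81.6, 51.1 and 59.0 CPM at 0.8% Ca, in replicates 1, 3 and 4. It was at 30.6, 32.3, 56.8 and 26.2 CPM in replicates 1 to 4 at 1.0% Ca. It ranged most at 1.2% Ca, with 26.5, 74.8 and 137 CPM in replicates 1 to 3. Here too the birds that led for XDH were the highest.

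CHAC1, an enzyme that breaks glutathione down, followed another order. It ranged from 8.79 CPM in replicate 2 at 1.2% Ca to 107 CPM in replicate 2 at 1.0% Ca. Every bird at 0.8% Ca, from 25.0 to 54.6 CPM, lay above every bird at 1.2% Ca, from 8.79 to 23.8 CPM, and the 1.0% Ca birds, from 11.9 to 107 CPM, overlapped both. The second highest bird, at 76.0 CPM, was replicate 4 at 1.0% Ca. Over all 10 birds, those that led for XDH thus did not lead for CHAC1. Within their own groups they did, at 54.6 CPM in replicate 1 at 0.8% Ca and 23.8 CPM in replicate 3 at 1.2% Ca. At 1.0% Ca the bird with the most XDH, replicate 3, had the lowest CHAC1 of its group, at 11.9 CPM.

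Within Ca groups, XDH varied together with MGST1 and GSTA3, while no relation of MGST2 with XDH, MGST1 or GSTA3 passed the test. The difference between these correlations was not tested. All of these genes could be named only because the study listed them as DEGs of these birds. The high XDH birds of the 0.8 and 1.2% Ca groups were also the highest birds for MGST1 and GSTA3. A choice by differences between groups can favour genes that share high birds. The permutation p values given here and in the next paragraph are therefore not free of that choice. For each gene the group mean of log2 CPM was subtracted, and the remainders were correlated over the 10 birds, with exact two-sided permutation tests that exchange birds only within groups (864 arrangements, 5 relations). The smallest p these arrangements can give is 0.00116. XDH and MGST1 had r = 0.814 (exact permutation p = 0.00116, adjusted p = 0.00289) and Spearman rho = 0.891 (same p values). The remainders of XDH and MGST1 had the same sign in 9 of 10 birds. Without the birds farthest from the median of XDH, the high birds of the 0.8 and 1.2% Ca groups, r was 0.753. The group means subtracted there were still those of all 10 birds, so that the high birds still shaped this value. Within group and lane together r was 0.797 (exact permutation p = 0.00694). Exchanging birds within group and lane leaves fewer arrangements, and this p is the smallest that they can give.

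XDH and GSTA3 had r = 0.686 (exact permutation p = 0.00116, adjusted p = 0.00289) and rho = 0.891 (same p values), with the same sign in 9 of 10 birds. Without the same pair of birds r was 0.535, again with the group means of all 10 birds subtracted. With birds compared within group and lane together, r was 0.662 (exact permutation p = 0.0208). Leaving out any bird at 0.8% Ca ended this call, with r between 0.678 and 0.761 and exact permutation p of 0.0694 to 0.122. MGST2 and XDH had r = -0.371 (exact permutation p = 0.575, adjusted p = 0.839) and rho = -0.067. MGST2 gave r = -0.072 with MGST1 (exact permutation p = 0.839, adjusted p = 0.839, rho = 0.030) and r = 0.114 with GSTA3 (exact permutation p = 0.714, adjusted p = 0.839, rho = 0.164). Without replicate 3 of the 0.8% Ca group and replicate 2 of the 1.0% Ca group, the birds farthest from the median of MGST2, the values of r were -0.236 with XDH, 0.043 with MGST1 and 0.227 with GSTA3. The group means subtracted here were still those of all 10 birds, so that the birds left out still shaped these values.

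**Figure D4:**
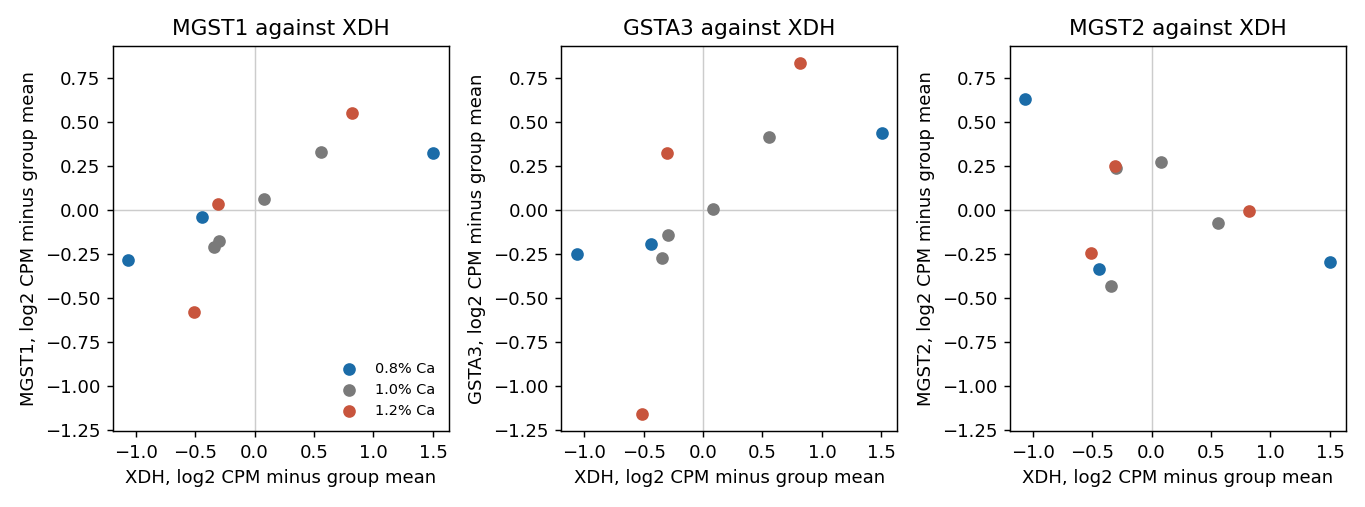
Remainders of log2 CPM after the group mean was subtracted, for MGST1, GSTA3 and MGST2 against XDH, with a point for each of the 10 birds coloured by Ca group. MGST1 and GSTA3 were higher where XDH was higher (r = 0.814 and 0.686), and the relation of MGST2 with XDH did not pass the test (r = -0.371).

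In each Ca group, the bird with the most XDH also had the highest summed level of white blood cell markers and the lowest of dividing cell markers. These markers could be named only because the study listed them as DEGs of these birds. How many of all 12187 genes tested share such an order was not counted. Markers of a list may vary together, so that they are not separate observations. Of 10 white blood cell markers 8 could be identified (Nox2 among them), and none was at 0 in any bird. Their summed level was 645 to 870 CPM at 0.8% Ca, 476 to 630 CPM at 1.0% Ca and 502 to 1156 CPM at 1.2% Ca. In the bird with the most XDH of each group, 6 of 8 of these markers were at their highest in the group at 0.8% Ca, 5 of 8 at 1.0% Ca and 7 of 8 at 1.2% Ca. Below that bird the order was not kept, since at 0.8% Ca the sum was 645 CPM in the bird with XDH at 18.0 CPM and 664 CPM in the bird with XDH at 11.6 CPM.

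The dividing cell markers went the other way. All 8 of 8 (ANLN, BUB1, CCNB2, CDK1, MKI67, RRM2, TOP2A and TPX2, genes of DNA replication and mitosis) were at their lowest of the group in the bird with the most XDH, in all 3 groups. These genes may vary together, so that 8 of 8 is not 8 separate observations. The share of all genes tested that were lowest in the same birds was not counted, and no link with XDH is read from this count. Their sum was 151 CPM in replicate 1 at 0.8% Ca against 561 and 661 CPM in the other birds there. It was 372 CPM in replicate 3 at 1.0% Ca against 610 to 846 CPM, and 581 CPM in replicate 3 at 1.2% Ca against 762 and 1135 CPM. For MGST2 the pattern differed, as the bird with the most MGST2 at 0.8% Ca held 8 of 8 of these markers at their highest of the group, while 0 of 8 were highest or lowest in the leading MGST2 bird at 1.0 or 1.2% Ca. The part of these or other cell types in the levels of XDH was not tested.

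**Figure D5:**
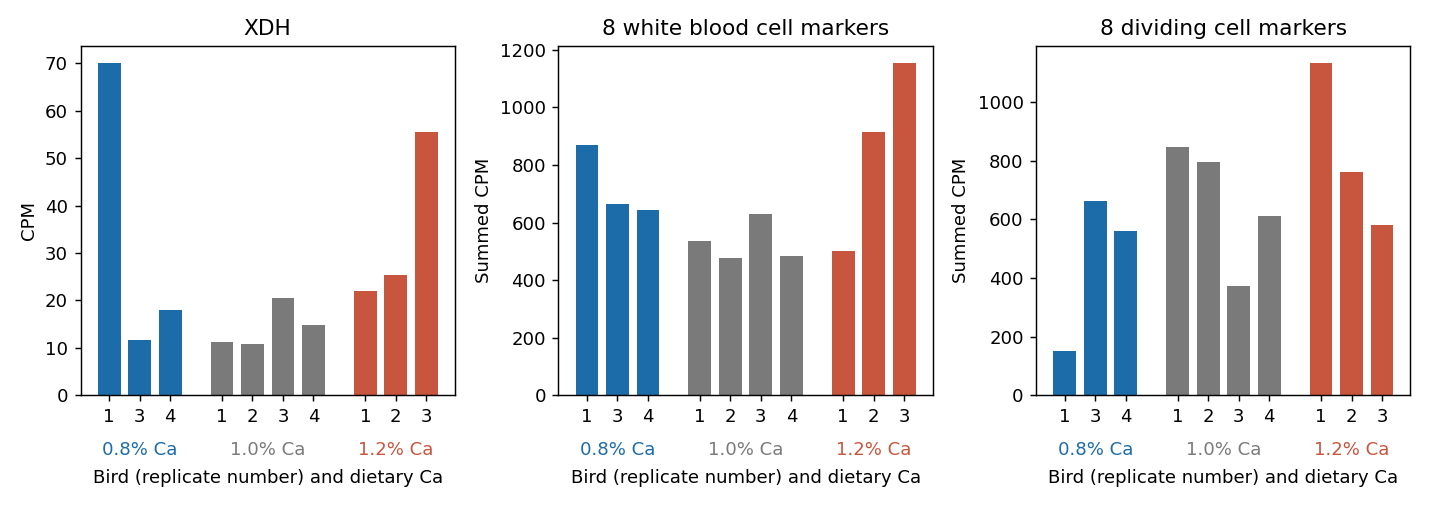
CPM of XDH, and summed CPM of 8 white blood cell markers and of 8 dividing cell markers, as bars for each bird by Ca group. In each group the bird with the most XDH had the highest white blood cell sum (870, 630 and 1156 CPM) and the lowest dividing cell sum (151, 372 and 581 CPM).

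The remaining marker lists were identified only in part. Of 7 heterophil markers 3 were identified (GAL1, GAL2 and LECT2). Their sum was 88.8 to 209 CPM at 0.8% Ca, 123 to 289 CPM at 1.0% Ca and 276 to 665 CPM at 1.2% Ca. The bird with the most XDH held the highest sum in 0 of 3 groups. At 0.8% Ca this was a near tie, at 209.09 CPM in that bird against 209.24 CPM in replicate 3. Of 9 endothelium markers 2 were identified (341 to 455, 218 to 387 and 172 to 255 CPM in order of rising Ca), and of 9 fibroblast and matrix markers 4 (302 to 555, 631 to 1060 and 527 to 912 CPM). In the bird with the most XDH, the fibroblast and matrix sum was the lowest of each group. At 1.0% Ca this too was a near tie, at 630.5 CPM in that bird against 631.1 CPM in replicate 1. Both endothelium markers were the highest of the group in the bird with the most XDH at 0.8 and 1.2% Ca, and the lowest at 1.0% Ca. Of 7 red blood cell markers 1 was identified (6.11 to 41.2 CPM). Of 20 kidney tubule markers only WNK4, a kinase that regulates salt transport, could be identified, at 37.9 to 246 CPM, and it was the highest of the group in the bird with the most XDH at 0.8 and 1.0% Ca. The tissue label could therefore hardly be checked from named genes.

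The genes most like XDH over the 10 birds came from several functions, and all correlations in this paragraph are descriptions that share libraries, lanes and Ca groups. Among 142 other named genes, Pearson r of log2 CPM with XDH was highest for RNASET2, a lysosomal ribonuclease (0.883), LDHA, a subunit of lactate dehydrogenase (0.880), MGST1 (0.879), MECR, a reductase of mitochondrial fatty acid synthesis (0.866), and CRYD2 (0.860). In each of these 5, the 2 birds that led for XDH were the highest of all 10, which their choice by r over the same birds favours. LDHA, for example, was at 458 CPM in replicate 1 at 0.8% Ca and at 624 CPM in replicate 3 at 1.2% Ca, with the other birds between 163 and 379 CPM. Over all 12186 other genes tested, the highest r were 0.931 for ENSGALG00000004436 and 0.914 for ENSGALG00000015148, and 77 genes were above 0.8, of which 9 were named. The choice of the named genes as DEGs of these birds can favour their share among the 77, and nothing is read from it. Nox2 had r = 0.752 with XDH.

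With MGST2, 30 of the 12186 other genes tested had r above 0.8. As so few of all genes did, nothing is read from the 0 found among the 142 other named genes. The nearest were FAM43A (0.710), IL2RG, a receptor chain shared by several interleukins (0.690), HPX, the plasma protein that binds heme (0.674), RPS29, a ribosomal protein (0.669), and GILT, a lysosomal thiol reductase (0.656). After the group means were subtracted these fell to -0.095, 0.10, 0.257, 0.009 and 0.199. The likeness of these 5 named genes to MGST2 thus lay mostly between the Ca groups. MGST2 and the named genes were listed as DEGs between Ca groups of these birds, a choice that favours such a likeness. For the 5 genes nearest to XDH the corresponding values were 0.843, 0.819, 0.814, 0.897 and 0.835. These 5 were also chosen by r over the same birds. Of the variation of XDH 33.0% lay between groups, against 74.5% for MGST2, which favours high values here. The values for XDH and for MGST2 are therefore not compared. Over all genes tested, ENSGALG00000011145 (0.908) and ENSGALG00000006460 (0.896) were nearest to MGST2. After the group means were subtracted their r with MGST2 was 0.779 and 0.868, values that their choice by r over the same birds favours.

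Genes beside MGST2 and XDH on the chromosomes ranged less between birds than the 2 genes did. MGST2 and XDH were chosen for differences between these birds and their neighbours were not, a choice that favours a wider range for the 2. The nearest tested neighbour of XDH, ENSGALG00000008708 on the reverse strand 2566 bases after it, ranged from 43.1 to 58.6 CPM, and ENSGALG00000008594, 19442 bases before it, from 42.0 to 62.4 CPM. The 6 nearest tested genes around XDH differed 1.36 to 2.09 times between their lowest and highest bird, against 6.46 times for XDH, and had r of -0.621 to 0.408 with it. Around MGST2, ENSGALG00000009809 lay 4321 bases after it and ranged from 30.4 to 44.2 CPM, and ENSGALG00000009800 lay 14553 bases before it and ranged from 67.3 to 98.2 CPM. The 6 nearest tested genes there differed 1.37 to 3.30 times, against 5.68 times for MGST2, and had r of -0.412 to 0.318 with it. The 3.30 times was that of ENSGALG00000009826, at 3.43 to 11.3 CPM the neighbour nearest to MGST2 in level.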

How the data were processed

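Kidney RNA from 10 broiler chickens, 1 library per bird, was measured. The authors trimmed reads with Trimmomatic 0.32, dropping reads under 80 bp, mapped them with HISAT2 2.0.4 on Galgal4, and ran featureCounts 1.5.0-p3 on the exons of Ensembl release 84. The deposited values are raw whole-number counts per gene, not normalized. The labels name a stranded kit, while the header of the table shows no strand option, so fragments of both strands were counted together.

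Counts were fitted in R 4.3.3 with edgeR 4.0.16 (TMM, filterByExpr, quasi-likelihood test on all libraries, two-sided, Benjamini-Hochberg adjustment over 12187 genes), as a slope on Ca and between pairs of groups, with adjusted p thresholds of 0.1 and 0.05. As alternatives, DESeq2 1.42.0, the likelihood ratio test, RLE factors, total counts, no filter, a lane covariate, a replicate block and the omission of each bird were tried. The fits were also run on simulated counts that gave every gene the same dispersion. Nothing is read from that run for MGST2 or XDH. The SE of each edgeR difference was worked back from its test, as the absolute log2 difference divided by the square root of the test statistic. Log2 CPM used a prior count of 2. Replicates are separate birds, and the sources used here do not say which birds shared a pen.

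MGST2, XDH and all gene lists were chosen with earlier results of these data known. Named were MGST2, XDH, the identified members of the redox, purine and cell type lists, the 5 named genes and the 2 genes overall with the highest r to either, and the genes beside them. Symbols came from the tables of the study, of which only symbols, identifiers and positions were read, and 0 identifiers matched the RefSeq table. A locus named a gene where it held 0.9 of the gene and the gene covered 0.5 of the locus. No sequences are shown. No pairing of birds by replicate number was seen. Correlations of remainders between birds with the same number and different Ca ran from -0.411 to 0.319 over 8 pairs. Between birds with different numbers and different Ca they ran from -0.343 to 0.465 over 25 pairs. So few pairs cannot exclude a shared pen or block.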

Additional observations from a re-analysis of the deposited data

How the results depend on the processing

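The counts of genes called depended on the test. The quasi-likelihood test called 0 genes in all 4 comparisons, the likelihood ratio test 35 (slope), 22 (0.8 and 1.0% Ca), 19 (0.8 and 1.2% Ca) and 3 (1.0 and 1.2% Ca), and DESeq2 56, 30, 42 and 3. RLE factors, total counts, no filter and lane as a covariate left the quasi-likelihood counts at 0. With each bird left out they ranged from 0 to 44 for the slope (44 without replicate 3 at 1.2% Ca), 0 to 2 (2 without replicate 2 at 1.2% Ca), 0 to 0, and 0 to 1 (1 without replicate 3 of the 1.0% Ca group, and 1 without replicate 2 of the 1.2% Ca group). With the replicate number as a block the counts stayed at 0 and the differences between 0.8 and 1.0% Ca were -1.37 for MGST2 and -0.98 for XDH. No pairing of birds by these numbers was seen. Leaving out a bird moved the XDH slope between -0.63 and 1.34, and turned it to -0.19, -0.08 and -0.63 and its difference between 0.8 and 1.2% Ca, which ranged from -0.49 to 1.21, to -0.36, -0.25 and -0.49 without replicates 3 and 4 at 0.8% Ca and replicate 3 at 1.2% Ca, in that order. The correlation of MGST2 with XDH ranged from -0.532 to 0.118, turning positive without replicate 3 at 0.8% Ca. That of XDH with MGST1 ranged from 0.777 to 0.921, and that of XDH with GSTA3 from 0.585 to 0.922, losing its call without any of the birds at 0.8% Ca. The alternatives to these last correlations and the other scalings of overlap were added after seeing the data. Groups of 3 or 4 birds and 19 to 101 fragments per bird limit what can be said of MGST2, and the spread between birds limits what can be said of XDH.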
